A study of Mus musculus with 9 samples.

Results

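Taurine is made in the liver from cysteine and is also taken up from the blood. The 5 genes examined were Csad, Cdo1, Ado and Slc6a6 of these steps, and Suox of the branch that ends in sulfate instead. They are 5 of the 19938 genes that the array table of this study measured with probe sets annotated with exactly 1 gene symbol, and each of them was read by 1 probe set. Cdo1, Ado, Suox and Slc6a6 were listed for what their proteins do. Csad was listed because of the values described here, which were low in OB-control livers and high in OB-TUDCA livers, so its levels and differences are given as a description without a test.

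Liver RNA was hybridised to Affymetrix Mouse Gene 1.0 ST arrays, 3 per group, which limits the precision of every value. OB-TUDCA mice were ob/ob mice of strain B6.V-Lepob/J given tauroursodeoxycholic acid (TUDCA) by gavage at 500 mg/kg, 2 times a day for 3 weeks. OB-control mice were ob/ob mice of the same strain given tap water by gavage, and N-control mice were wildtype C57BL/6J littermates given tap water in the same way. All were males bought at 6 weeks of age, ate normal chow and were killed after 8 h of fasting. The ob/ob mice lack functional leptin from birth and have fatty livers, and OB-TUDCA against N-control differs in both genotype and treatment. Values are log2 signals from the robust multi-array average (RMA), so a difference of 1 is a doubling, and a level was never set against that of another gene because probe sets differ in brightness.

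Cysteine is oxidised by cysteine dioxygenase (Cdo1) to cysteine sulfinate, which cysteine sulfinic acid decarboxylase (Csad) turns into hypotaurine. Hypotaurine also arises from cysteamine, a breakdown product of coenzyme A, through cysteamine dioxygenase (Ado), and is then oxidised to taurine. Cysteine sulfinate that is not decarboxylated ends as sulfite, which sulfite oxidase (Suox) oxidises to sulfate in mitochondria. The sodium- and chloride-dependent carrier Slc6a6 brings taurine into cells. The mouse liver joins most of its bile acids to taurine before secretion, and TUDCA is itself such a taurine conjugate.

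Csad and Suox had the largest differences of the 5 genes between OB-TUDCA and OB-control livers, so the bases before their start sites are shown. RefSeq promoter windows of mouse assembly GRCm38.p6 were used for 3 of the 5 genes (Csad, Ado and Suox), in 4 windows, and the 250 bases before each start were searched on both strands for AGGTCA (a nuclear receptor half-site), TGACGT (the core of a cyclic AMP response element), TGACNNNGC (the core of an antioxidant response element) and TATAAA. All are on the minus strand and read 5′ to 3′ toward the start. Capitals mark TGACGT or its reverse complement.
Csad, upstream start, chr15:102205053-102205302: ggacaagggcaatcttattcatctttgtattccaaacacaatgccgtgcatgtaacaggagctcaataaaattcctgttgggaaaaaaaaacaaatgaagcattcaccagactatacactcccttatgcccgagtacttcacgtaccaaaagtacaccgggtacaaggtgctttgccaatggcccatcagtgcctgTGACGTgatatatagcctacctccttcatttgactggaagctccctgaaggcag
Csad, downstream start, chr15:102189044-102189293: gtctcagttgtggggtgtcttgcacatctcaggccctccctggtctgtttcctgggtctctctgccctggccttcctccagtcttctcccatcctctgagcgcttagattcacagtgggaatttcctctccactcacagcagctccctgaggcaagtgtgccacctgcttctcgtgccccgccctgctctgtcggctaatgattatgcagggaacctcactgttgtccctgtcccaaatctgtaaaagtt
Suox, chr10:128673919-128674168: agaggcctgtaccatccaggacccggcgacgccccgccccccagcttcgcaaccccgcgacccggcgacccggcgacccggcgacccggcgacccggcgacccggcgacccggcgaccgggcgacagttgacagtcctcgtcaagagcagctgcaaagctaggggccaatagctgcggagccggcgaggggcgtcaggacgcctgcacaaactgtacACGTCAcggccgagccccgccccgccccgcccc
In the upstream Csad window TGACGT lies 54 to 49 bases before the start, and in the Suox window its reverse complement lies 33 to 28 bases before the start. The downstream Csad window and the Ado window held no match to any of the 4 motifs. TGACGT shares its letters TGAC with TGACNNNGC, but neither match here extends to that longer motif. Of 32851 windows of this length, 6.47% held TGACGT on either strand, 14.0% AGGTCA, 10.2% TGACNNNGC and 12.4% TATAAA. The windows also differ in base composition: G and C make up 44.8% of the upstream Csad window, 55.6% of the downstream one and 74.4% of the Suox window. The table holds 1 value for Csad, so its 2 starts are not told apart, and a match of letters is no evidence that a factor binds there.

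The arrays resembled each other closely before any gene was compared. Array medians over all probe sets lay between 4.50 and 4.58, and Pearson's r over all probe sets was 0.981 to 0.990 within groups and 0.976 to 0.987 between groups. Hepatocyte markers, averaged over the 5 measured of 6, lay at 12.50 to 12.56 on OB-TUDCA arrays, 12.28 to 12.43 on OB-control arrays and 12.46 to 12.54 on N-control arrays. N-control replicate 2 stood apart in 14 pancreatic acinar genes, whose mean was 10.37 on that array and between 3.96 and 4.48 on the other 8. Differences of the 5 genes against N-control are therefore also given without it, and so are the calls of listed pathway genes against N-control. Of 6 markers of sinusoidal endothelial cells, limma called Lyve1 higher and Fcgr2b and Oit3 lower in OB-TUDCA against N-control, beside 3.24% of all genes called. Of the hepatocyte markers it called Hnf4a higher there, and markers of Kupffer, stellate and bile duct cells gave 0 calls. These marker calls are not given without N-control replicate 2. In OB-TUDCA against OB-control limma called 0 of the 6 endothelial markers, beside 0.301% of all genes. Lyve1 differed there by 1.61 (limma adjusted p = 0.108), Pecam1 by 0.38, Oit3 by -0.39, Fcgr2b by -0.41, and Stab2 and Clec4g by -0.09 each. The part of these markers in the results was not tested. In whole liver, fewer cells of a type and less RNA per cell cannot be told apart.

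Csad was lower in livers of OB-control mice than in livers of either other group. It lay at 9.14, 9.27 and 9.45 on the OB-TUDCA arrays, at 7.82, 7.74 and 8.29 on the OB-control arrays, and at 9.14, 9.30 and 9.56 on the N-control arrays. Every OB-control array was below every OB-TUDCA array and every N-control array, whereas OB-TUDCA and N-control arrays overlapped. The means were 9.29 ± 0.16 in OB-TUDCA livers, 7.95 ± 0.30 in OB-control livers and 9.33 ± 0.22 in N-control livers (SD, n = 3 each). OB-TUDCA exceeded OB-control by 1.33 (SE 0.16), a fold of 2.52. Against N-control, OB-control stood at -1.38 (SE 0.16), which is 2.60-fold lower. Ordered by size, the OB-TUDCA against OB-control difference was number 17 from the top of 19938 genes, and the OB-control against N-control difference number 53 from the bottom. Csad was listed for these differences, so its places are a description only. Both differences use the same OB-control arrays and are not independent of each other. Between OB-TUDCA and N-control the difference was -0.05 (SE 0.16), with a sign that depended on the settings.

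Beside these values, the hepatocyte marker mean was also lower on each OB-control array than on any other array. Its members were not alike in this: Alb differed between OB-control and N-control by -0.10, Ttr by -0.08, Tat by -0.28, Apoa1 by -0.49 and Hnf4a by 0.17. In OB-TUDCA against OB-control Alb differed by -0.01, Ttr by -0.01, Tat by 0.06, Apoa1 by 0.43 and Hnf4a by 0.41. The part of hepatocyte content in the Csad values was not tested. Without N-control replicate 2 the OB-control against N-control difference of Csad was -1.40 and the OB-TUDCA against N-control difference -0.066. Without OB-control replicate 3, the highest of its group, it was -1.55, while OB-TUDCA against OB-control was 1.50. Over 18 alternative settings, OB-TUDCA against OB-control lay between 1.23 and 1.50 and OB-control against N-control between -1.55 and -1.26. Several of these settings, such as the filter, the variance prior and the replicate block, cannot move a difference of group means. Csad was listed for this step, so the range is a description without a test.

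**Figure D1:**
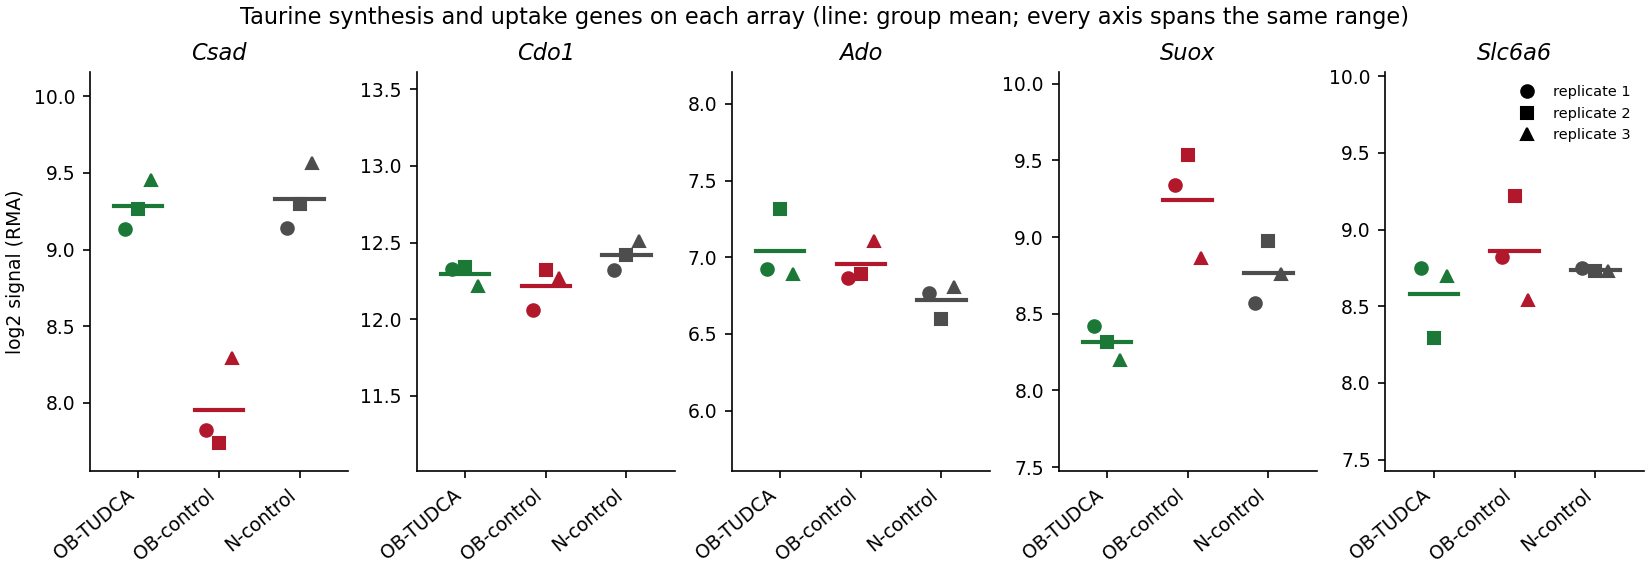
Log2 RMA signal (vertical axis) of Csad, Cdo1, Ado, Suox and Slc6a6 on each of the 9 arrays, by group (horizontal axis), with a line at the group mean, marker shapes for the replicate number and the same span on each axis. The 3 Csad points of OB-control (7.74 to 8.29) lie below all others, the 3 Suox points of OB-TUDCA (8.20 to 8.42) lie below all others, and the group means of Cdo1, Ado and Slc6a6 lie within 0.32 of each other.

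Suox had its highest mean in OB-control livers and its lowest in OB-TUDCA livers, although no comparison passed the threshold. Its levels were 8.42, 8.32 and 8.20 on the OB-TUDCA arrays, 9.34, 9.53 and 8.86 on the OB-control arrays, and 8.57, 8.98 and 8.76 on the N-control arrays. The OB-TUDCA arrays did not overlap with either other group, while OB-control replicate 3 lay below N-control replicate 2. The means were 8.31 ± 0.11 in OB-TUDCA livers, 9.25 ± 0.34 in OB-control livers and 8.77 ± 0.20 in N-control livers (SD, n = 3 each). OB-TUDCA against OB-control was -0.93 (SE 0.17), 1.91-fold lower, with an unadjusted p = 0.000324 and an adjusted p = 0.0635 in limma. It passed in 2 of 18 alternatives, at adjusted p = 0.0433 when the dimmest genes (the third with the lowest mean) were left out and at 0.0436 (difference -1.12) without OB-control replicate 3, and otherwise reached up to 0.222.

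Suox in OB-control livers averaged 0.48 (SE 0.17) above N-control livers, at limma's adjusted p = 0.280, and 0.58 above them without N-control replicate 2. In OB-TUDCA livers it stood at -0.45 (SE 0.17) against N-control livers, at limma's adjusted p = 0.192, and at -0.35 without N-control replicate 2. The OB-control arrays enter both the comparison with OB-TUDCA and that with N-control, so opposite signs of the 2 differences are not independent of each other. Within OB-control, replicate 2 was lowest for Csad and highest for Suox, and replicate 3 was highest for Csad and lowest for Suox.

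Cdo1, which makes the substrate of Csad, had group means close to each other. It lay at 12.33, 12.34 and 12.22 on the OB-TUDCA arrays, 12.06, 12.32 and 12.27 on the OB-control arrays, and 12.32, 12.42 and 12.51 on the N-control arrays. OB-control replicate 1 was the lowest array, and all groups overlapped. OB-TUDCA differed from OB-control by 0.08 (SE 0.09, 95% interval -0.13 to 0.28, limma adjusted p = 0.787). OB-control against N-control was -0.20 (SE 0.09, limma adjusted p = 0.425), and OB-TUDCA against N-control was -0.12 (limma adjusted p = 0.541). Without N-control replicate 2 these were -0.20 and -0.12.

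Ado, the enzyme of the cysteamine route, was highest on an OB-TUDCA array and lowest on an N-control array. Its levels were 6.93, 7.31 and 6.89 on the OB-TUDCA arrays, 6.86, 6.89 and 7.11 on the OB-control arrays, and 6.77, 6.60 and 6.80 on the N-control arrays. The N-control arrays lay below all ob/ob arrays, whereas OB-TUDCA and OB-control overlapped. OB-TUDCA against OB-control was 0.09 (SE 0.13, 95% interval -0.19 to 0.37, limma adjusted p = 0.829) and turned to -0.045 without OB-TUDCA replicate 2. OB-control against N-control was 0.23 (SE 0.13, limma adjusted p = 0.519). OB-TUDCA against N-control was 0.32 (SE 0.13, limma adjusted p = 0.217). Without N-control replicate 2, its lowest array, Ado differed by 0.26 in OB-TUDCA against N-control and by 0.17 in OB-control against N-control.

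Slc6a6, the taurine carrier, varied more within the ob/ob groups than between groups. It lay at 8.75, 8.29 and 8.70 on the OB-TUDCA arrays, 8.82, 9.22 and 8.54 on the OB-control arrays, and 8.75, 8.73 and 8.73 on the N-control arrays. The groups overlapped in the comparison of OB-TUDCA with OB-control, and the N-control arrays fell inside the range of either ob/ob group. Their small spread (SD 0.01) is a matter of 3 values, 2 of which the table lists as the same number. OB-TUDCA against OB-control was -0.28 (SE 0.17, 95% interval -0.67 to 0.11, limma adjusted p = 0.572). OB-control against N-control was 0.12 (SE 0.17, limma adjusted p = 0.836) and turned to -0.057 without OB-control replicate 2, and OB-TUDCA against N-control was -0.16 (limma adjusted p = 0.688). Both were the same at 2 decimals without N-control replicate 2.

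Among the 4 genes listed by function, limma called 0 in each of the 3 comparisons. The background of called genes was 0.301% of the 19938 genes in OB-TUDCA against OB-control, 0.948% in OB-control against N-control and 3.24% in OB-TUDCA against N-control. At an unadjusted p under 0.05 there was 1 of 4 in OB-TUDCA against OB-control (Suox, beside 12.0% of all genes), 1 of 4 in OB-control against N-control (Suox, beside 12.1%) and 2 of 4 in OB-TUDCA against N-control (Ado and Suox, beside 18.5%). The arrays did not overlap for 1 of 4 in OB-TUDCA against OB-control (Suox, beside 13.8% of all genes), 1 of 4 in OB-control against N-control (Ado, beside 15.3%) and 2 of 4 in OB-TUDCA against N-control (Ado and Suox, beside 20.7%). With 4 genes, such counts are a description of them only.

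**Figure D2:**
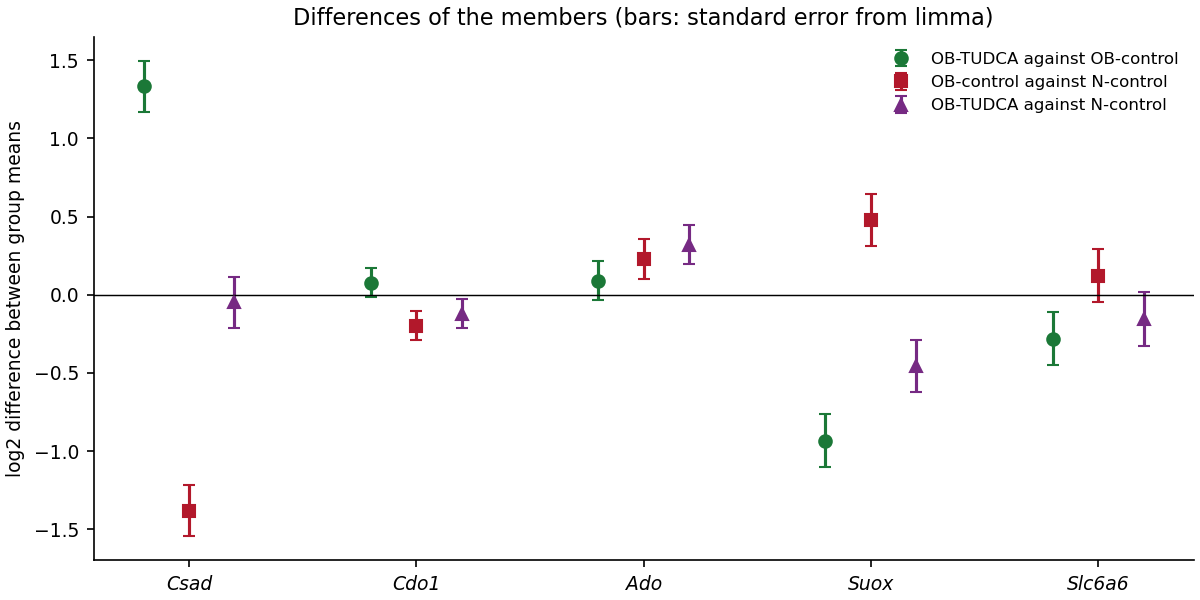
Log2 difference between group means (vertical axis) of the 5 genes in OB-TUDCA against OB-control, OB-control against N-control and OB-TUDCA against N-control, with bars of 1 standard error from limma over the 9 arrays. Csad stands at 1.33, -1.38 and -0.05 in these comparisons, Suox at -0.93, 0.48 and -0.45, and the other 3 genes within 0.32 of 0.

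The genes most like Csad over the 9 arrays were Nfxl1 (Pearson's r = 0.96), Esp1 (0.96), Kctd21 (0.96), Tcim (0.96) and Apoa1 (0.95), and the least alike were Asrgl1 (-0.96), Uaca (-0.95) and Cpped1 (-0.95). Apoa1 encodes the main protein of high-density lipoprotein, and Asrgl1 an asparaginase-like hydrolase. All of these were picked for their likeness over the same arrays, so r is a description, and with 3 groups it follows mostly the step between groups. Esp1 lay at 2.91 to 3.30, below the array medians of 4.50 to 4.58, and whether its signal stands above background was not tested. Apoa1 lay at 12.78, 12.80 and 13.00 on the OB-TUDCA arrays, 12.27, 12.47 and 12.55 on the OB-control arrays, and 12.90, 12.90 and 12.94 on the N-control arrays. Of these 8, Tcim showed the step nearest in size to that of Csad, 0.88 in OB-TUDCA against OB-control and -0.95 in OB-control against N-control. Once the group means were taken off, r with Csad was 0.82 for Kctd21 and -0.86 for Cpped1 but 0.46 for Tcim. None of the 8 is a gene of the taurine lists examined here.

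**Figure D3:**
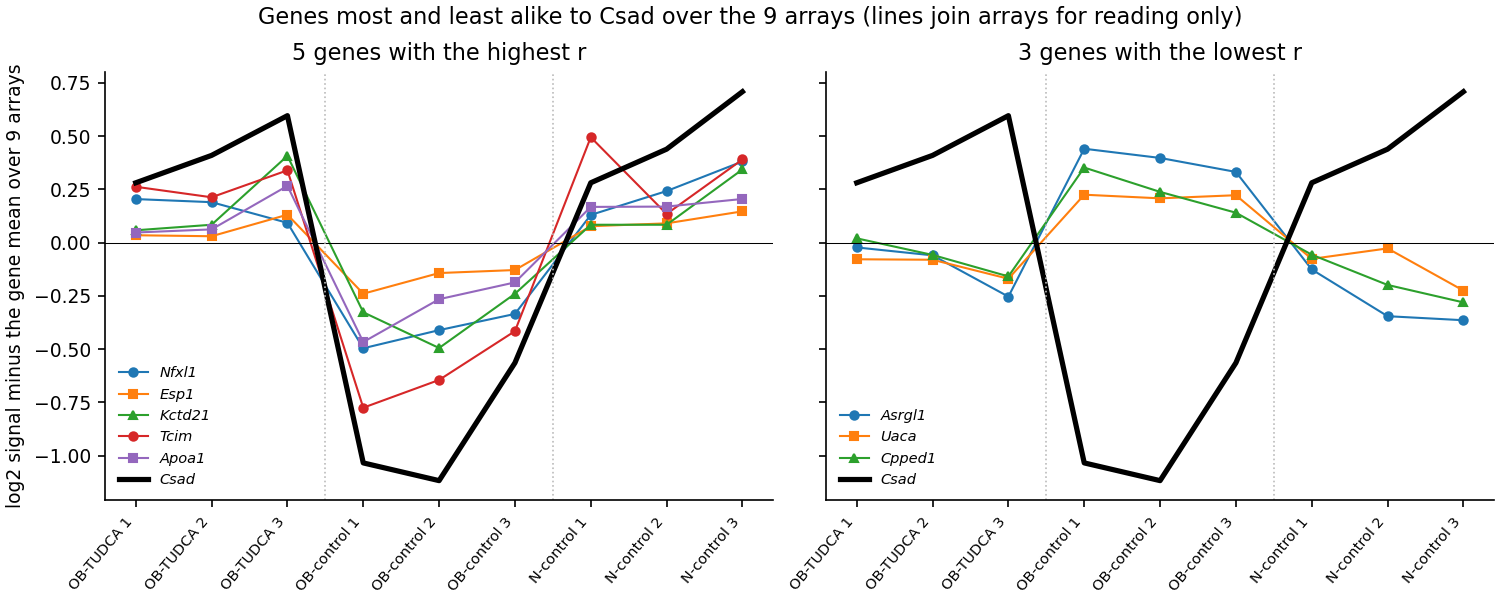
Log2 signal minus each gene's mean over the 9 arrays (vertical axis) on each array (horizontal axis) for Csad (thick black line), the 5 genes with the highest r to it (left) and the 3 with the lowest (right); the lines only join points. Csad moves furthest of all, and the 3 genes on the right are highest on the OB-control arrays.

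For the other genes, the most alike over the 9 arrays were Rbm7 (r = 0.98), Ssb (0.97) and Thoc1 (0.97) for Cdo1, and Tlcd5 (0.96), Rad18 (0.96) and Pcdhb10 (0.95) for Ado. For Suox they were Adssl1 (0.96), St6galnac6 (0.96) and Cnpy3 (0.96), and for Slc6a6 Klk11 (0.97), Invs (0.96) and Tert (0.96). These genes too were picked over the same arrays, and r is again a description. Klk11 (2.60 to 2.93) and Pcdhb10 (2.47 to 3.15) lay below the array medians of 4.50 to 4.58. Klk11 also had the same value on all 3 N-control arrays. Whether such signals stand above background was not tested. Measured genes near Csad on chromosome 15, chosen by position, did not share its step. Zfp740, whose RefSeq span overlaps that of Csad, differed by 0.07 in OB-TUDCA against OB-control and 0.14 in OB-control against N-control. In the same order, Itgb7 differed by 0.07 and -0.15, and Igfbp6 by -0.02 and -0.13. Soat2, which lies between Igfbp6 and Csad, was not measured. Near Suox on chromosome 10, Rab5b differed by -0.20 in OB-TUDCA against OB-control, Ikzf4 by 0.20 and Pmel by 0.00, and Rps26 was not measured.

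Around these 5 genes, 65 genes of cysteine supply, glutathione, coenzyme A, sulfur oxidation, sulfate, other decarboxylases, taurine carriers, taurine use and bile acids were listed, and 63 of them were measured. In OB-TUDCA against OB-control 0 of 63 passed, with a median difference of -0.12 beside 0.01 over all genes. Without adjustment, 20 of the 63 had a p under 0.05 and a lower mean in OB-TUDCA, and 2 a higher mean, where the background was 5.72% of all genes lower and 6.26% higher. That background covers dim genes too, and the lists were drawn up with earlier results of these data known. The counts therefore describe the listed genes only. In OB-control against N-control 1 of 63 passed (Sult2a8, lower in OB-control, background 0.492%), with a median of 0.01 beside 0.02. In OB-TUDCA against N-control 1 was called higher (background 1.35%) and 7 lower (background 1.89%), with a median of -0.10 beside 0.04.

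Lists on the sulfite and sulfate side, where Suox acts, held the lowest medians in OB-TUDCA against OB-control, -0.30 over the 9 genes of sulfide and sulfite oxidation and -0.38 over the 5 genes of sulfate use. Of the 9, 7 had a lower mean in OB-TUDCA, beside 46.3% of all genes. At an unadjusted p under 0.05, 4 did so, beside 5.72% of all genes. Limma called 0 of the 9, beside 0.301% of all genes. Gphn, which inserts molybdenum into the cofactor that Suox needs, lay at 8.50, 8.05 and 8.47 on the OB-TUDCA arrays, 9.27, 9.21 and 8.94 on the OB-control arrays, and 9.28, 9.23 and 9.42 on the N-control arrays. Every OB-TUDCA array was below the arrays of both other groups. The difference was -0.80 (SE 0.14, limma adjusted p = 0.0529) against OB-control and -0.97 (SE 0.14, limma adjusted p = 0.00783) against N-control. The call against N-control held in all 17 alternatives run for it, and the comparison with OB-control passed in 6 of 17. Other cofactor genes of this list, chosen after their values were seen, were not alike in OB-TUDCA against OB-control. Mocs1 differed by -0.20 (limma adjusted p = 0.646), Mocs2 by -0.30 (limma adjusted p = 0.476) and Mocs3 by 0.17 (limma adjusted p = 0.651).

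Papss2, which makes the activated sulfate used by sulfotransferases, lay at 9.72, 8.91 and 9.53 on the OB-TUDCA arrays, 10.72, 10.48 and 10.22 on the OB-control arrays, and 10.78, 10.56 and 10.27 on the N-control arrays. The OB-TUDCA arrays were below all others, by -1.08 on average against OB-control (SE 0.22, limma adjusted p = 0.0797) and -1.15 against N-control (SE 0.22, limma adjusted p = 0.0248). Sult2a8, a sulfotransferase of a multigene family that acts on bile acids in mouse liver, stood at 9.27, 8.51 and 8.98 in OB-TUDCA, 9.19, 8.73 and 9.33 in OB-control, and 11.38, 11.48 and 11.56 in N-control. It was lower in both ob/ob groups than in N-control, with differences of -2.39 in OB-control (limma adjusted p = 0.000621) and -2.55 in OB-TUDCA (limma adjusted p = 0.00056), in each of 17 alternatives. Chosen after their values were seen, the sulfide enzymes Sqor and Mpst differed by -0.60 and -0.44 in OB-TUDCA against OB-control, at limma's adjusted p = 0.132 and 0.165.

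**Figure D4:**
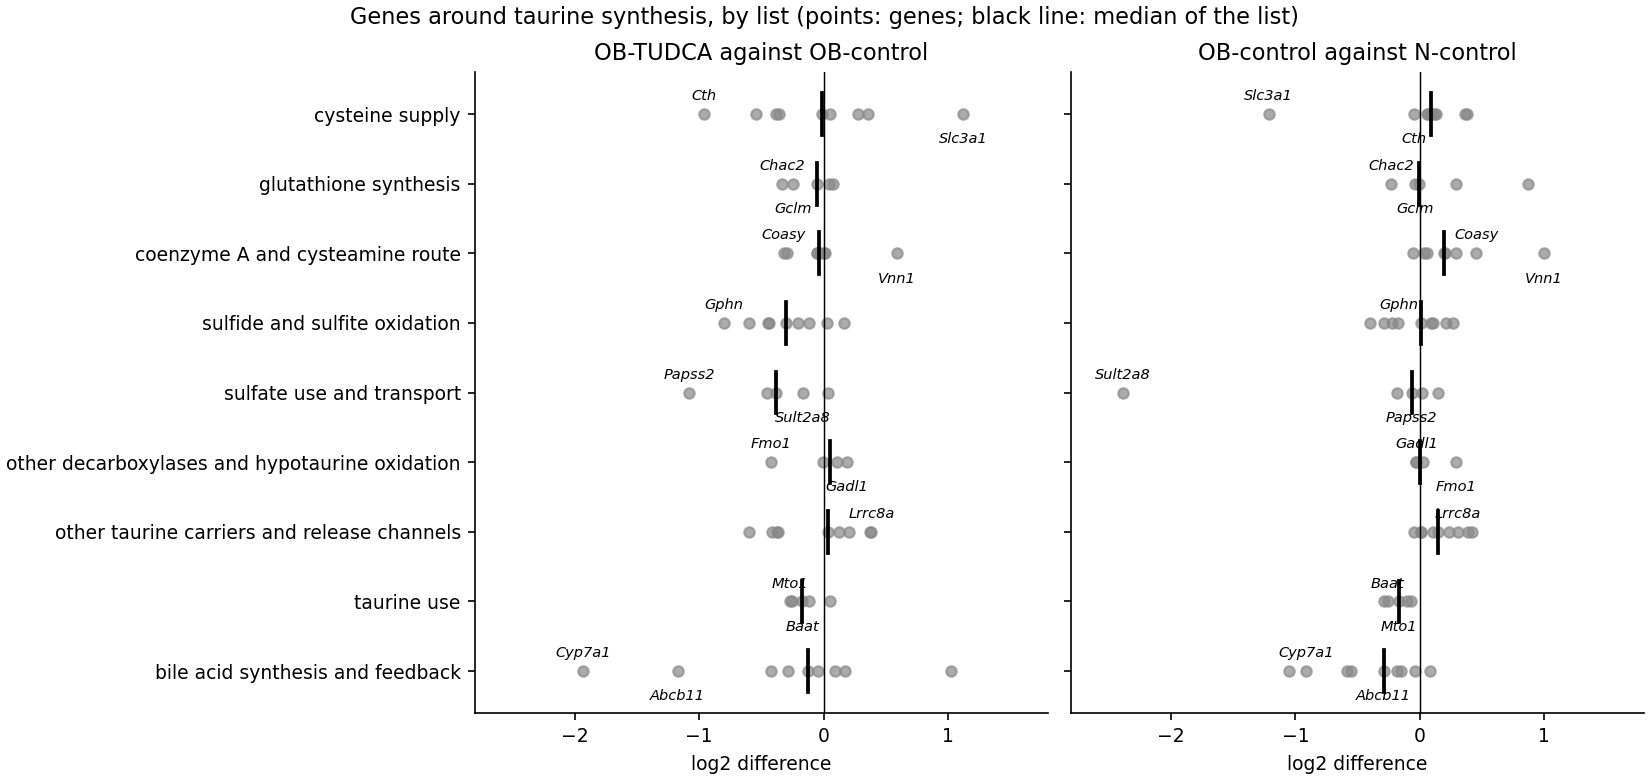
Log2 difference (horizontal axis) of the 63 measured genes around taurine synthesis, 1 point a gene, in 9 lists (rows), for OB-TUDCA against OB-control (left) and OB-control against N-control (right), with a black line at the median of each list. On the left the medians of the sulfide and sulfite list (-0.30) and of the sulfate list (-0.38) lie furthest from 0, and on the right Sult2a8 (-2.39) lies apart.

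Genes that supply cysteine, and with it the substrate of Cdo1, gave 0 calls among the 9 measured of 10 in each comparison. Over all genes the called share was 0.301% in OB-TUDCA against OB-control, 0.948% in OB-control against N-control and 3.24% in OB-TUDCA against N-control. Counts over so few genes are a description only. Cth, which releases cysteine from cystathionine, lay at 11.52, 10.68 and 10.91 in OB-TUDCA livers, 12.13, 12.60 and 11.27 in OB-control livers and 11.99, 12.20 and 11.92 in N-control livers, a difference of -0.96 (SE 0.31, limma adjusted p = 0.248) between OB-TUDCA and OB-control. Slc3a1, a subunit of a cystine carrier, had the same order of groups as Csad but far more spread, with arrays at 8.42 to 9.55 in OB-TUDCA, 6.85 to 9.27 in OB-control and 8.94 to 9.25 in N-control. Its difference of 1.12 (SE 0.53) between OB-TUDCA and OB-control had a limma adjusted p = 0.443, and it was 0.60 without OB-control replicate 3 and 1.82 without OB-control replicate 2. Of 5 measured genes of glutathione, the other main sink of cysteine, 0 were called, beside the same shares of all genes. Chac2 stood at -0.34 (limma adjusted p = 0.399) and Gclm at -0.25 (limma adjusted p = 0.399) in OB-TUDCA against OB-control.

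The cysteamine route that feeds Ado gave 0 calls among 8 genes in each comparison, beside 0.301%, 0.948% and 3.24% of all genes in the order above. Vnn1, a pantetheinase that releases cysteamine, lay at 10.30, 10.98 and 11.33 in OB-TUDCA, 10.29, 9.72 and 10.84 in OB-control and 8.53, 9.02 and 10.30 in N-control. The lowest OB-TUDCA array and the highest N-control array were level at 2 decimals, and the difference of 1.59 (SE 0.45) had a limma adjusted p = 0.102. Coasy, the last enzyme of coenzyme A synthesis, was 0.45 above N-control in OB-control livers (limma adjusted p = 0.0709) and stood at -0.32 in OB-TUDCA against OB-control (limma adjusted p = 0.202). Fmo1, a flavin monooxygenase that oxidises hypotaurine to taurine, differed by -0.42 in OB-TUDCA against OB-control (SE 0.10, limma adjusted p = 0.112), and its OB-TUDCA arrays (10.94, 10.75 and 10.82) lay below the OB-control arrays (11.28, 11.29 and 11.21). Gadl1, a decarboxylase related to Csad, differed by 0.18 (SE 0.14, limma adjusted p = 0.650).

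Beside Slc6a6, the list of 9 other carriers and release channels gave 1 call, in OB-TUDCA against N-control, where 3.24% of all genes were called. Lrrc8a, the subunit that volume-regulated anion channels need and through which cells release taurine, was at 7.69, 7.77 and 8.10 in OB-TUDCA, 7.47 on each OB-control array and 6.97, 7.12 and 7.41 in N-control. It was higher in OB-TUDCA than in N-control by 0.69 (SE 0.13, limma adjusted p = 0.0253). Against OB-control its difference was 0.38 (limma adjusted p = 0.278). The table lists the same number on all 3 arrays for 471 of the 19938 genes in OB-control, in 388 genes in OB-TUDCA and in 501 genes in N-control, and the origin of such values was not tested. The liver carriers Slc6a13 and Slc6a12, chosen after their values were seen, differed by -0.36 (limma adjusted p = 0.230) and -0.60 (limma adjusted p = 0.310) in OB-TUDCA against OB-control.

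Among genes that use taurine, Baat, which joins bile acids to taurine, fell by 0.43 in OB-TUDCA against N-control (SE 0.09, limma adjusted p = 0.0442), at 10.60, 10.38 and 10.28 in OB-TUDCA, 10.57, 10.56 and 10.64 in OB-control and 10.87, 10.75 and 10.92 in N-control. Mto1, which takes part in putting a taurine group on mitochondrial transfer RNA, fell by 0.44 in OB-TUDCA against N-control (SE 0.09, limma adjusted p = 0.03). The other 3 genes of that list had lower means in OB-TUDCA than in N-control without a call, beside 40.4% of all genes with a lower mean. All 5 genes of the list also had lower means in OB-control than in N-control without a call, beside 43.0% of all genes with a lower mean. Of 9 bile acid genes, Abcb11, the pump that exports conjugated bile acids, fell by 1.46 in OB-TUDCA against N-control (SE 0.20, limma adjusted p = 0.0068), and Cyp7a1, the rate-limiting enzyme of bile acid synthesis, fell by 2.85 (SE 0.57, limma adjusted p = 0.0297). Against OB-control they stood at -1.17 (limma adjusted p = 0.0529) and -1.93 (limma adjusted p = 0.198). Nr0b2, a repressor of bile acid synthesis named after its values were seen, shared the order of groups of Csad with overlap, at 7.96, 8.36 and 8.01 in OB-TUDCA, 7.05, 8.17 and 6.03 in OB-control and 7.97, 8.46 and 7.98 in N-control (1.03 in OB-TUDCA against OB-control, limma adjusted p = 0.382). That difference was 0.50 without OB-control replicate 3 and 1.57 without OB-control replicate 2.

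Of the 8 calls among these genes in OB-TUDCA against N-control, those of Gphn, Sult2a8 and Abcb11 held in all 17 alternatives run. The other 5 (Papss2, Lrrc8a, Mto1, Baat and Cyp7a1) were all lost without N-control replicate 2 (limma adjusted p 0.0726 to 0.103), without OB-TUDCA replicate 2 (0.0677 to 0.141) and without OB-TUDCA replicate 3 (0.0603 to 0.111). Without N-control replicate 1 the calls of Papss2, Lrrc8a, Baat and Cyp7a1 were lost (0.0998 to 0.154), without N-control replicate 3 those of Mto1, Baat and Cyp7a1 (0.0592 to 0.113), and without OB-control replicate 1 those of Lrrc8a, Mto1, Baat and Cyp7a1 (0.0528 to 0.0763). Without OB-control replicate 2 or replicate 3 the call of Baat alone was lost, at 0.0599 and 0.0624. All 5 were also lost with only the 6 arrays compared (0.0634 to 0.104) and with the mean of the acinar genes as a covariate (0.0637 to 0.0911). With quantile normalization once more the call of Baat was lost (0.0825), and with a trended and robust variance prior that of Cyp7a1 (0.0544). The differences themselves without N-control replicate 2 were -1.02 for Gphn, -2.55 for Sult2a8, -1.14 for Papss2, 0.67 for Lrrc8a, -0.41 for Mto1, -0.48 for Baat, -1.47 for Abcb11 and -2.54 for Cyp7a1. Sult2a8 in OB-control against N-control was then -2.38 (limma adjusted p = 0.00586).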

How the data were processed

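The deposited values are log2 signals per probe set, which the authors made from the scans with RMA (background correction, quantile normalization and probe summary) in Affymetrix Expression Console (version not given in the sources used here). They were used without further normalization. Probe sets annotated with 1 symbol (21789) were averaged per symbol, and those with several (1621) or none (12146) were left out. No filter on signal was applied, and arrays have no read depth. All 9 arrays were fitted with limma 3.58.1 in R 4.3.3 (3 group means, 6 residual degrees of freedom, two-sided, Benjamini-Hochberg adjustment over 19938 genes, threshold 0.05). An exact permutation of 3 against 3 arrays cannot go below p = 0.1 and was not used. The labels call the arrays biological replicates. The fit was tested on simulated data.

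The genes and lists were chosen with earlier results of these data known. Named are the 5 genes, from each list the genes past the threshold (at most 6) or else the 2 with the largest difference between OB-TUDCA and OB-control, and the genes most alike by Pearson's r. Others are said to be chosen later or by position. Alternatives changed the filter, normalization, variance prior, array weights, arrays fitted, an acinar covariate and a replicate block, or left out each array. RefSeq tables of GRCm38.p6 gave names, neighbours and promoter windows. Figures were drawn with matplotlib 3.10.9.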

Additional observations from a re-analysis of the deposited data

How the results depend on the processing

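With 3 arrays a group, the counts of called genes moved with the settings. In OB-TUDCA against OB-control, 60 genes were called as deposited, 131 with the dimmest genes left out and 97 after quantile normalization once more. With only the 6 arrays compared or with the acinar mean as a covariate limma called 0, with 2060 and 2194 genes at an unadjusted p under 0.05. Leaving out each array in turn gave 0 to 135. In OB-control against N-control, 189 became 358 with array weights, 65 with only the 6 arrays and 71 with the covariate, and 60 to 266 when an array was left out. In OB-TUDCA against N-control, 646 became 345 with only the 6 arrays and 325 with the covariate, and 193 to 788 when an array was left out. The cause was not tested.

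Suox passed in OB-TUDCA against OB-control in 2 of 18 alternatives. Differences near 0 changed sign. Csad in OB-TUDCA against N-control was 0.018 and Cdo1 0.012 after quantile normalization once more. When an array was left out, that Csad difference lay between -0.145 (N-control replicate 1 left out) and 0.069 (replicate 3 of that group left out), and was 0.027 without OB-TUDCA replicate 1. Ado in OB-TUDCA against OB-control lay between -0.045 (without OB-TUDCA replicate 2) and 0.167, and Slc6a6 in OB-control against N-control between -0.057 (without OB-control replicate 2) and 0.283. The labels number the replicates alike in each group. Deviations of same-numbered arrays had r from -0.08 to 0.21 over 9 pairs, and 4 of 9 exceeded 0.1. The pairs of replicate 3 had r of 0.209, 0.106 and 0.207. Arrays of different numbers were not compared, so these values cannot decide whether the numbers mark pairs. The main fit had no replicate block. With the replicate block, 60 genes were called in OB-TUDCA against OB-control, 189 in OB-control against N-control and 871 in OB-TUDCA against N-control, and Suox in OB-TUDCA against OB-control had an adjusted p = 0.0527. Of the 8 calls among the listed genes in OB-TUDCA against N-control, the block left 6, and those of Baat and Cyp7a1 missed the threshold (adjusted p 0.0521 to 0.0538).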
